A study of Mus musculus with 21 samples.

Results

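Numb, 4 Notch receptors, 3 Notch ligands and 2 effectors were followed through the knockout RNA-seq and the RBM10 crosslinking data of mouse cells. The 10 genes were taken by name, as Numb with named members of the pathway it acts on, out of 34369 annotated genes with TPM values. They are Dll1, Dll3 and Jag1 (ligands), Notch1, Notch2, Notch3 and Notch4 (receptors), Numb and Dtx1 (regulators) and Hes1 (a target). All 10 were found in both RNA-seq tables. In md MEPA cells, where crosslinking was done, 4 of them passed the filter of at least 1 TPM in at least 3 libraries, and in ES cells all 10 did.

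Notch receptors are cut in a series of steps after a Delta or Jagged ligand on a neighbouring cell binds them, and the freed intracellular part enters the nucleus and acts with Rbpj on targets such as the repressor gene Hes1. Numb is an endocytic adaptor that opposes Notch signalling and is shared out unequally when some cells divide. It is made in isoforms that differ by a short insert in the phosphotyrosine-binding domain and a long insert in the proline-rich region, each coded by a cassette exon. RBM10, an RNA-binding protein, is reported to promote skipping of the exon for the long insert in human cells.

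The ES cell groups were an Rbm10 gene trap line, Rbm10Gt(CSI176)Byg, which is male, and its parent E14Tg2a.4 as wild type (WT), with 3 RNA-seq libraries each. Both were grown with LIF on gelatin. The md MEPA groups were 4 knockout (KO) clones and 3 WT libraries of a line from the mandibular arch of 11.5 d.p.c. embryos of CD1 and Immortomouse parents, which carry the immortalising transgene. KO1 and KO2 were CRISPR/Cas9 clones with a deletion in exon 3 of Rbm10, and KO3 and KO4 had theirs in exon 9. All md MEPA cells, crosslinked ones included, were kept at 33 °C with 100 U/ml interferon. For iCLIP, WT md MEPA cells received 400 mJ/cm2 of UV at 254 nm, which ties protein to RNA. There were 4 precipitations with an antibody to RBM10 and 4 with rabbit IgG. The ES KO is 1 line, and nothing says that libraries of 1 ES line or of WT md cells came from separate cultures, so p-values measure the spread between these libraries, which may be technical. In bulk RNA, fewer expressing cells and less RNA per cell cannot be told apart.

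The RBM10 libraries held 774816 to 2847066 crosslinks and the IgG libraries 103017 to 2214515, and the depth behind the TPM values is unknown. All RBM10 libraries came from a single sequencing lane and all IgG libraries from a second lane. Effects of lane and antibody therefore cannot be told apart. Rbm10 stood at 3.63 to 4.27 TPM in ES KO against 32.2 to 33.5 TPM in ES WT. In md cells it stood at 7.20 and 3.49 TPM in the exon 9 clones, at 23.2 and 19.7 TPM in the exon 3 clones, and at 21.4 to 23.7 TPM in WT. A gene level does not read a deletion within an exon, so the values of the exon 3 clones check nothing. Of 8 ES cell markers, 8 averaged at least 1 TPM in ES cells, where they summed to 4250 to 4709 TPM in KO and 4429 to 5300 TPM in WT. Of 8 arch mesenchyme markers 5 did so in md cells, with sums of 3086 to 4959 TPM in KO and 4568 to 4863 TPM in WT. Hand2, a defining arch gene, was listed at 0 in every md library, as were the ES cell genes Pou5f1, Zfp42 and Tdgf1. Of the 8 ES cell markers 3 averaged at least 1 TPM in md cells. They summed there to 33.7 to 54.2 TPM in KO and 38.2 to 44.2 TPM in WT. Of the 8 arch markers 2 did so in ES cells, with sums of 76.9 to 118.3 TPM in KO and 81.2 to 158.5 TPM in WT.

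The sequences below show the Numb exons on which the inclusion values turn, and an intron end of Numb where RBM10 crosslinks gathered. They were read from the mm9 genome on the minus strand of chromosome 12. The first is chr12:85138127-85138353, with the 147-nt cassette exon (chr12:85138147-85138293) in capitals. It codes for 49 amino acids and is exon 12 in a chain of 13 exons that joins the annotated coding forms.
Numb 147-nt exon: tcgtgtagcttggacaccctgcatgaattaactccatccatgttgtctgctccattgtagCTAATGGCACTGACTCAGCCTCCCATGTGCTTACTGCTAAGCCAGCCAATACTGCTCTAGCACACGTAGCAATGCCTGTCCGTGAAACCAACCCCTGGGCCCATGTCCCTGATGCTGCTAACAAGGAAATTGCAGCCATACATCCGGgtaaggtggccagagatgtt
The next is chr12:85166189-85166301, with the 33-nt cassette exon (chr12:85166209-85166241, exon 6 of the chain) in capitals. It codes for 11 amino acids.
Numb 33-nt exon: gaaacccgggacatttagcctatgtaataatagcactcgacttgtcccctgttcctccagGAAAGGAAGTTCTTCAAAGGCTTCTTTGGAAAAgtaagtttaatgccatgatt
The third is chr12:85152311-85152510, the 200 nt of intron before exon 7, with the 28 bases that held an RBM10 crosslink in capitals.
Numb intron before exon 7: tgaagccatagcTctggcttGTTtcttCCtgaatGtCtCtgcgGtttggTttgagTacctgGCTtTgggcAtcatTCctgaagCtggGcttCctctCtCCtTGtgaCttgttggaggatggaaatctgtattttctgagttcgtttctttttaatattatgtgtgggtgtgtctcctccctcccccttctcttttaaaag

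Numb RNA differed between ES KO and WT cells by less than the spread of the libraries. It stood higher in every md KO clone than in md WT, without passing the test across genes. ES cells held 9.91, 9.58 and 9.81 TPM of Numb in KO, against 9.29, 10.2 and 9.20 TPM in WT. The ES groups overlapped, with a difference of 0.03 in log2(TPM + 1) (95% interval -0.18 to 0.24, limma adjusted p = 0.840). The md cells held 15.0, 15.4, 12.7 and 12.7 TPM in KO1 to KO4, and 11.1, 9.85 and 11.2 TPM in WT. Every md clone lay above every WT library, with a difference of 0.34 (95% interval 0.06 to 0.63). Its limma p was 0.0251 before and 0.685 after Benjamini-Hochberg adjustment over 12090 genes. Of all genes tested in md cells, 10.7% had groups that did not overlap. The ES effect minus the md effect was -0.32 (95% interval -0.63 to 0.00, adjusted p = 0.225). The exon 9 clones differed from the exon 3 clones by -0.24 (95% interval -0.53 to 0.06, adjusted p = 0.314). The exon 9 clones set against WT gave 0.23 (adjusted p = 0.407) and the exon 3 clones 0.46 (adjusted p = 0.174). The order of the 4 groups by mean TPM was md KO, md WT, ES KO and ES WT, and the last 3 overlapped one another. The ES and md tables were deposited separately, so levels and inclusion set across them were not tested.

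The 147-nt exon of Numb had a higher inclusion in every ES than in every md library, and its inclusion did not differ between KO and WT beyond the spread in either. Inclusion is given as PSI, the percent of TPM of transcripts with the exon among those that include or skip it. In ES cells the PSI was 48.8, 48.5 and 64.6% in KO and 47.4, 52.4 and 61.1% in WT. In md cells it was 13.6, 14.5, 25.8 and 20.2% in KO1 to KO4, and 19.8, 18.7 and 12.2% in WT. The KO and WT ranges overlapped in both cell types. KO differed from WT by 0.34 points in ES cells (95% interval -13.5 to 14.1, limma adjusted p = 0.983) and by 1.63 points in md cells (95% interval -6.77 to 10.0, adjusted p = 0.930). A difference of 10 points, the size a call required, lay within the ES interval in both directions. A rise of 10 points also lay within the md interval, which ended at 10.03 points. The sign of the difference changed when some libraries were left out. It was -4.98, -2.76 and -0.31 points in ES cells without KO 3, WT 1 and WT 2, and -0.80 and -0.73 points in md cells without KO3 and WT 3.

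The 33-nt exon had a PSI of 62.7, 67.2 and 54.7% in ES KO, and of 69.2, 62.6 and 50.0% in ES WT. In md cells its PSI was 62.4, 55.1, 49.5 and 61.6% in KO1 to KO4, and 45.7, 45.6 and 57.6% in WT. The groups overlapped in both cell types, and all 4 md clones lay above 2 of the 3 md WT libraries. The difference was 0.92 points in ES cells (95% interval -13.0 to 14.8, adjusted p = 0.963) and 7.49 points in md cells (95% interval -2.69 to 17.7, adjusted p = 0.677). The ES value was -1.91 points without KO 2 and -4.37 points without WT 3. An 85-nt exon that lies before the start codon (chr12:85196390-85196474, exon 3 of the chain) had a mean PSI of 60.1 ± 2.29% in ES KO and 67.7 ± 8.08% in ES WT (SD, n = 3 each). In md cells its mean PSI was 43.8 ± 5.11% in KO (n = 4) and 47.8 ± 4.99% in WT (n = 3). Its differences were -7.60 points in ES cells (adjusted p = 0.508) and -3.99 points in md cells (adjusted p = 0.772). A further cassette exon of Numb, the 75-nt exon 5, was included at 99.5 to 100.0% on average in every group and was not tested.

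Across the members limma called none of 4 cassette exons in ES cells, against 0.288% of 3820 tested (0.183% higher and 0.105% lower). It called none of 3 in md cells, against 0% of 4125. None had an unadjusted p under 0.05, in either cell type or in the ES effect minus the md effect, for which none of 3 Numb exons was called, against 0.467% of 2781 exons (0.324% higher and 0.144% lower). The ES exon outside Numb was a cassette exon of Notch4 (chr17:34718324-34718436), with a PSI of 67.8, 78.3 and 95.9% in KO and 77.2, 80.8 and 78.6% in WT. KO libraries lay on both sides of WT, and the difference was 1.83 points (adjusted p = 0.934).

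**Figure D1:**
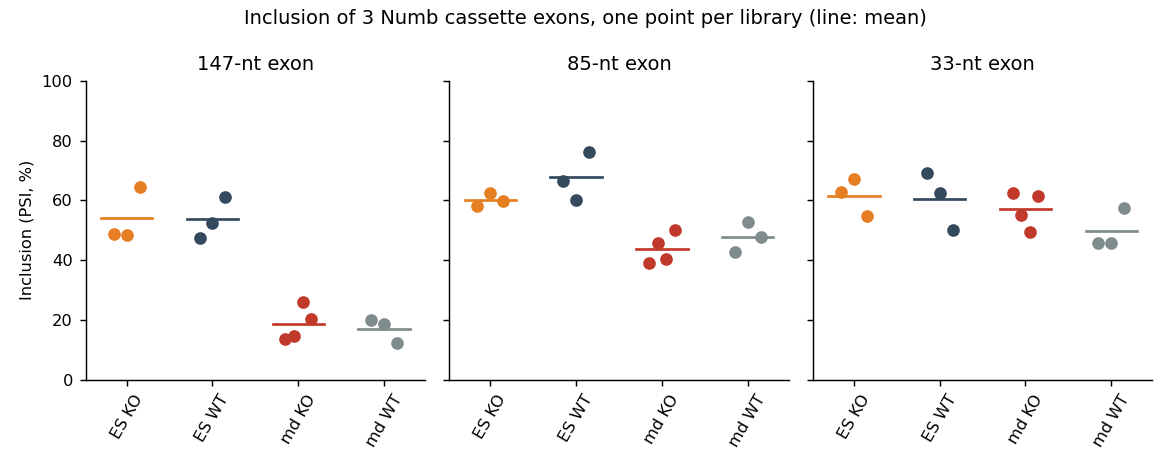
Inclusion (PSI in percent, vertical axis) of 3 Numb cassette exons in ES KO, ES WT, md KO and md WT libraries; each point is a library and each line a group mean. KO and WT points overlap for every exon, and the 147-nt exon stands at 47.4 to 64.6% in ES cells and 12.2 to 25.8% in md cells.

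In md cells the 147-nt exon was included only in transcripts annotated for nonsense-mediated decay, the pathway that degrades RNA with an early stop codon. The coding forms with the exon, ENSMUST00000129335 and ENSMUST00000154043, were listed at 0 in all md libraries, while the decay forms with it summed to 1.37 ± 0.26 TPM in KO (n = 4) and 1.05 ± 0.28 TPM in WT (n = 3). In ES cells the coding forms with the exon summed to 1.05, 0.766 and 2.30 TPM in KO and 0.706, 1.54 and 2.77 TPM in WT. Among the 4 coding forms that reach the last exon, they held 17.1, 13.4 and 40.2% in KO and 12.8, 24.0 and 43.6% in WT. The spread within each ES group was larger than the distance between the groups. Of these 4 forms, 3 are annotated with no UTR, and ENSMUST00000117217, which lacks both inserts, carries UTRs.

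Among the 4 coding forms that reach the last exon, the share with the 33-nt exon overlapped between md KO and WT. It was 25.4, 18.0, 24.8 and 14.3% in KO1 to KO4, and 29.8, 25.5 and 15.6% in WT. Most md TPM with that exon lay in ENSMUST00000135962, a form that is also annotated as coding, with 118 codons, and that ends in exon 8 of the chain. That form held 39.1 ± 6.90% of Numb TPM in md KO and 30.7 ± 12.0% in md WT, and was listed at 0 in all 6 ES libraries. In ES cells the coding form with the 33-nt exon alone, ENSMUST00000021647, held 28.0 ± 8.83% in KO and 24.1 ± 13.9% in WT. The form with neither insert held 17.8 ± 0.92% in ES KO, 22.1 ± 7.84% in ES WT, 35.1 ± 4.76% in md KO and 36.7 ± 5.31% in md WT.

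No transcript share of a member passed the test. In ES cells limma called none of 23 shares of 7 members, against 0.0424% of 18872 (0.0265% higher and 0.0159% lower), and in md cells none of 9 shares of Numb and Hes1, against 0% of 18725. None had an unadjusted p under 0.05. In ES cells the members' KO minus WT differences ran from -9.52 points, for the protein-coding Hes1 form, to 15.5 points, for the protein-coding Dll1 form. In md cells they ran from -6.76 to 8.47 points. Much of the ES signal of some members lay outside coding forms. The processed transcript ENSMUST00000138721 held 72.0 ± 0.80% of Dll3 TPM in KO and 67.3 ± 5.23% in WT. A retained-intron form held 52.8 ± 3.28% of Jag1 TPM in KO and 54.7 ± 3.04% in WT.

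RBM10 did not crosslink to Numb as a whole more than IgG did, but its crosslinks lay nearer to splice sites. Numb (chr12:85134984-85262884, minus strand) held 78, 245, 183 and 47 crosslinks in the RBM10 libraries and 90, 202, 6 and 16 in the IgG libraries. Scaled to each library's total (CPM), the gene stood at 69.97, 86.1, 64.3 and 60.7 with RBM10, and at 93.3, 91.2, 58.2 and 101 with IgG. All RBM10 values lay below those of 3 IgG libraries, and the IgG library below them rests on 6 crosslinks. edgeR's quasi-likelihood test gave a log2 fold change of -0.60 (adjusted p = 0.0427), with 37.4% of 9284 genes called, 20.4% higher and 17.0% lower with RBM10. The call was lost with the replicate number as a block (-0.52, adjusted p = 0.0975), the numbers marking each precipitation and its own IgG control. It was also lost without TMM scaling (-0.34, adjusted p = 0.221), with DESeq2 (adjusted p = 0.0714) and with at least 10 crosslinks as the filter (adjusted p = 0.102). Leaving out a library ended it for RBM10 1, 3 and 4 (adjusted p = 0.0841, 0.107 and 0.138) and for IgG 1, 2 and 4 (adjusted p = 0.131, 0.134 and 0.0608). TMM scaling set the median gene at 0.05, against 0.32 without it. Of 3472 genes called 1893 were higher with RBM10, and 2768 of 3689 without TMM scaling.

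Within 100 nt of an annotated splice site lay 4, 18, 28 and 7 Numb crosslinks with RBM10, and 2, 2, 0 and 0 with IgG. As shares of the gene's crosslinks these are 5.13, 7.35, 15.3 and 14.9% with RBM10 and 2.22, 0.990, 0 and 0% with IgG. A count of 0 allows up to 50.0% in the third IgG library and 18.8% in the fourth, and such limits cover counting error only. The groups did not overlap, and the windows make up 1.88% of the gene's bases. The difference was 9.86 points (10.7 ± 5.20% with RBM10 and 0.803 ± 1.06% with IgG, SD over 4 libraries each). A 2-sided exact permutation test gave p = 0.0286, the lowest value that the splits of 4 against 4 allow, and 0.0358 when adjusted over the 5 shares tested. RBM10 was higher in 4 of 4 pairs, with an exact sign-flip p of 0.125, the smallest that 4 pairs allow. With a single IgG library left out the difference was 9.60 to 10.3 points (exact p = 0.0571). Within 300 nt the counts were 18, 52, 85 and 24 with RBM10 and 6, 11, 0 and 0 with IgG.

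**Figure D2:**
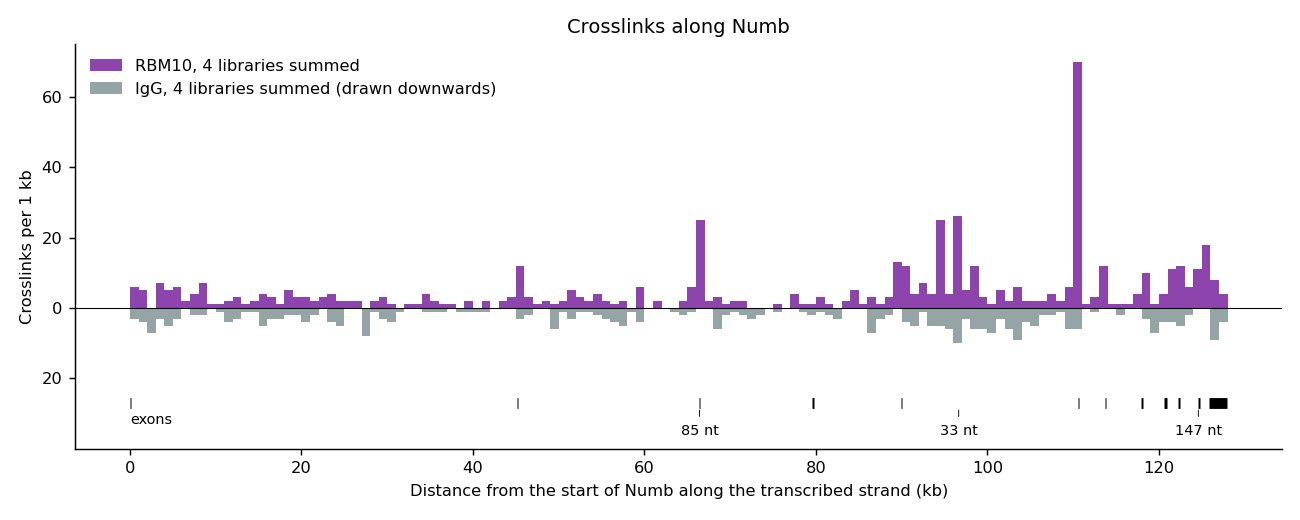
Crosslinks per 1 kb along Numb (horizontal axis, kb from the gene's start), summed over 4 RBM10 libraries (upwards) and 4 IgG libraries (downwards); black marks are exons, with the lengths of 3 cassette exons. The tallest bin, at 110 kb, holds 70 RBM10 and 6 IgG crosslinks and covers the intron end before exon 7. Counts are not scaled to the library totals.

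The densest RBM10 stretch in Numb was the intron end before exon 7, the exon after the 33-nt cassette, shown above. In its last 300 nt lay 5, 22, 20 and 9 crosslinks with RBM10, against 0, 3, 0 and 0 with IgG. These are 6.41, 8.98, 10.9 and 19.2% of the gene's RBM10 crosslinks, and 1.49% in the IgG library with any. Of those 56 RBM10 crosslinks 9 lay in the last 100 nt, and the capitals of the printed sequence end 94 nt before the exon. The position with most RBM10 crosslinks in the gene, chr12:85152404, had 4 and 1 in RBM10 libraries 2 and 3 and is the last of those capitals. The next were chr12:85152440 and chr12:85152447 in the same intron, and chr12:85168386 in the intron before the 33-nt exon, with 4 each. The fifth was chr12:85137284, 180 nt before the last exon, with 3. IgG had none at these 5 positions. Of 459 Numb positions with an RBM10 crosslink 445 were seen in 1 library, 13 in 2 and 1 in 3.

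Smaller groups of RBM10 crosslinks lay before other Numb exons. The 300 nt before the 33-nt exon held 1, 10, 8 and 3 with RBM10 and 1, 1, 0 and 0 with IgG. Those before the 85-nt exon held 1, 2, 9 and 2 with RBM10, those before exon 5 held 2, 5, 3 and 1, and those before the last exon held 4, 3, 8 and 0, and IgG had none in these 3 stretches. Every one of these stretches had more RBM10 than IgG crosslinks in sum, in counts not scaled to the library totals. At the 147-nt exon the counts were low. The 300 nt before it held 2, 0, 1 and 0 RBM10 crosslinks, the exon 0, 0, 4 and 2, and the 300 nt after it 0, 0, 1 and 0, with none from IgG in any of them. By intron, the last one (1.04 kb, after the 147-nt exon) had 19 RBM10 and 0 IgG crosslinks. The first (45.0 kb) had 111 RBM10 and 93 IgG crosslinks. As shares of the gene's summed crosslinks, the last held 3.44% with RBM10 and 0% with IgG. The first held 20.1% with RBM10 and 29.6% with IgG. Per kb, the last held 18.2 RBM10 crosslinks in sum, the most of any intron in the chain, and 0 IgG crosslinks. The first held 2.47 per kb with RBM10 and 2.07 with IgG. No 1000-nt window of Numb passed the filter of the window test. With at least 10 crosslinks as the filter, 1 of 23 Numb windows was called, higher with RBM10. It was the window at chr12:85196001-85197000, which holds the 85-nt exon. It held 26 crosslinks with RBM10 and 0 with IgG (edgeR adjusted p = 0.0278). The window passed that filter on RBM10 crosslinks alone, which favours a higher call. Of 212398 windows tested that way 5.76% were called, 5.65% higher and 0.113% lower.

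RBM10 crosslinks in the members fell on C more often than IgG crosslinks did. In Numb, where it was not tested alone, the share at C was 24.4, 26.9, 36.6 and 40.4% with RBM10, and 8.89, 14.4, 16.7 and 0% with IgG. Over the pooled crosslinks of all 10 genes it was 39.9 ± 5.20% with RBM10 and 12.6 ± 3.84% with IgG (SD, n = 4 each, exact permutation p = 0.0286, sign-flip p = 0.125). The groups did not overlap. Notch2 held most of the pooled crosslinks (3420 with RBM10 and 1087 with IgG), and the share at C over all genes was not taken. The letters CTGTGGA, searched on the transcribed strand in the 100 nt of intron on each side of the 3 Numb cassette exons that were tested, were in 0 of 6 such ends. They were in 1.10% of all intron ends before exons of protein-coding genes and in 1.28% of those after.

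Among the ligands, the gene level of Dll3 was higher in ES KO than in WT, and none of the 3 was tested in md cells. Dll3, a divergent Delta protein known for its part in segmentation of the embryo, had 12.9, 9.67 and 9.31 TPM in ES KO against 5.15, 5.61 and 7.26 TPM in ES WT. The groups did not overlap, with a difference of 0.73 in log2(TPM + 1) (95% interval 0.34 to 1.12, limma adjusted p = 0.0383). Of 12860 genes 12.3% were called in ES cells and 7.53% called higher. The call was lost without KO 2, KO 3, WT 1 or WT 2 (adjusted p = 0.117, 0.105, 0.147 and 0.136) and without the filter on low values (0.0628). The number of genes called in ES cells was 61, 49, 21 and 49 without the same libraries, against 1576 with all and 3985 without KO 1. The protein-coding Dll3 form ENSMUST00000108315 overlapped, with 1.365 to 2.44 TPM in ES KO and 1.36 to 1.41 TPM in ES WT. The processed transcript ENSMUST00000138721 had 6.655 to 9.26 TPM in ES KO and 3.442 to 5.181 TPM in ES WT. These transcript levels were not tested. Jag1, a Jagged ligand with roles in many developing tissues, had 6.27, 5.44 and 6.55 TPM in ES KO and 5.36, 6.37 and 5.06 TPM in ES WT, which overlapped (0.10, adjusted p = 0.560). Dll1, a Delta ligand of somites and neural tissue, had 7.69, 2.30 and 3.15 TPM in ES KO and 4.54, 5.31 and 3.13 TPM in ES WT (-0.09, adjusted p = 0.874). KO 1 lay above and KO 2 below all WT libraries, and the sign turned to 0.19, 0.03 and 0.04 without KO 2, KO 3 or WT 2.

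In md cells Jag1 had 0.787, 0.347, 0.964 and 1.82 TPM in KO1 to KO4 and 0.933, 0.829 and 0.743 TPM in WT. Dll1 was at most 0.216 TPM in md KO and 0.393 TPM in md WT. Dll3 was listed at 0 in every md library.

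**Figure D3:**
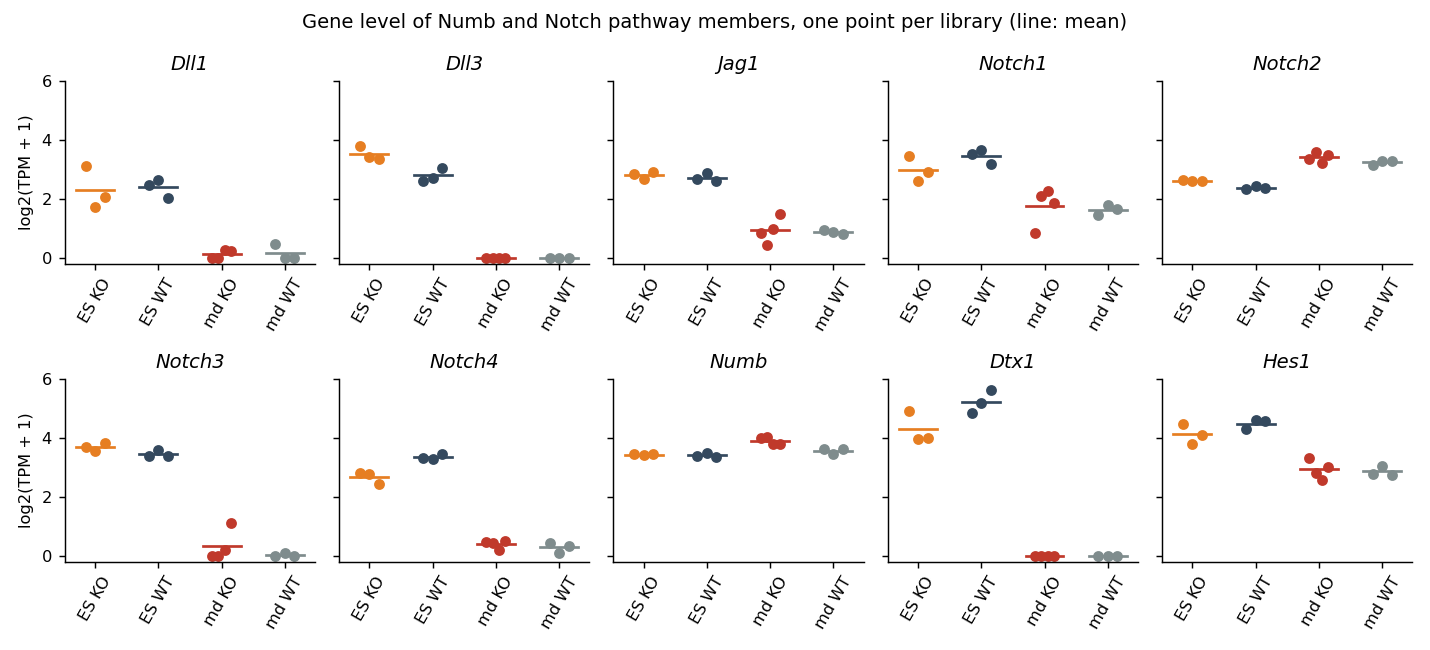
Gene level in log2(TPM + 1) (vertical axis) of the 10 genes in ES KO, ES WT, md KO and md WT libraries; each point is a library and each line a group mean. Dll3 and Dtx1 are at 0 in all md libraries, and Notch4 is lower in ES KO (4.34 to 5.99 TPM) than in ES WT (8.64 to 9.81 TPM).

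Of the receptors, Notch4 was lower in ES KO than in WT. Notch4, best known from endothelium, had 5.99, 5.79 and 4.34 TPM in ES KO against 8.84, 8.64 and 9.81 TPM in ES WT. The groups did not overlap, and the difference was -0.67 (95% interval -0.98 to -0.36, limma adjusted p = 0.0285), where 4.73% of genes were called lower. The adjusted p was 0.101, 0.0967, 0.120 and 0.109 without KO 2, KO 3, WT 1 and WT 2, and 0.0503 without the filter on low values. The 5 endothelial markers summed to 10.8 to 21.0 TPM in ES KO and 22.3 to 28.8 TPM in ES WT. Of them 2 averaged at least 1 TPM and the defining Cdh5 and Emcn were listed at 0, and their part in the result was not tested. Leukocyte markers summed to 10.2 to 12.7 TPM in ES KO and 16.3 to 17.8 TPM in ES WT, with Ptprc at 0 and 2 of 3 at 1 TPM or more. Epithelial markers summed to 173 to 211 TPM in ES KO and 155 to 174 TPM in ES WT, with Krt5 at 0 and 3 of 5 at 1 TPM or more, and their part was not tested either. In md cells Notch4 had 0.152 to 0.396 TPM in KO and 0.0654 to 0.357 TPM in WT. The ES effect minus the md effect was -0.78 for Notch4 (95% interval -1.19 to -0.36, adjusted p = 0.0450). Notch4 entered that contrast only through its ES level, and on the log2(TPM + 1) scale its md levels leave little room for an md effect, so the value restates the ES difference and shows no difference between the cell types. The same holds for Dll3 (0.73, adjusted p = 0.0525), listed at 0 in every md library. Of 14463 genes 3.97% were called in the contrast, 2.00% higher and 1.97% lower. limma called none of the 4 members that passed the md filter there, and none of them had an unadjusted p under 0.05. Notch4 lost that call when any library other than ES KO 1 and md KO3 was left out, with adjusted p from 0.0586 to 0.131. It also lost it with a pseudocount of 0.1 (-1.18, adjusted p = 0.198) and without the filter on low values (0.0628).

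Notch2, the receptor with most RNA in md cells, had 5.21, 5.12 and 5.06 TPM in ES KO and 4.02, 4.42 and 4.20 TPM in ES WT. The groups did not overlap, with a difference of 0.23 (95% interval 0.02 to 0.45, adjusted p = 0.121), and 38.3% of ES genes did not overlap. In md cells it had 9.25, 11.2, 8.39 and 10.3 TPM in KO1 to KO4 and 7.86, 8.67 and 8.87 TPM in WT, with 3 of 4 clones above all WT libraries (0.18, adjusted p = 0.798). Notch1, the receptor most studied in early development, had 9.99, 5.13 and 6.51 TPM in ES KO and 10.5, 11.8 and 8.06 TPM in ES WT (-0.47, 95% interval -1.02 to 0.09, adjusted p = 0.205). Without ES KO 1 that difference was -0.70 (adjusted p = 0.0329), in a fit that called 3985 genes, against 1576 with all libraries. In md cells Notch1 had 0.782, 3.33, 3.83 and 2.62 TPM in KO1 to KO4 and 1.71, 2.51 and 2.15 TPM in WT. KO1 was below all WT libraries and the other 3 clones above them, and the difference of 0.13 (adjusted p = 0.948) became -0.03 without KO3. On its opposite strand lie 2 noncoding genes with 1.68 and 2.85 TPM on average in ES cells, and the files do not say whether strand was used. Notch3, a receptor of smooth muscle and pericytes, had 11.8, 10.6 and 13.3 TPM in ES KO and 9.52, 11.1 and 9.51 TPM in ES WT (0.22, adjusted p = 0.217). In md cells it was listed at 0 in 4 of 7 libraries and reached 1.16 TPM in KO4.

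Neither Dtx1 nor Hes1 passed the test in ES cells. Dtx1, a ubiquitin ligase that acts on Notch, had 29.1, 14.5 and 15.1 TPM in ES KO and 27.5, 34.8 and 47.6 TPM in ES WT. KO 1 lay within the WT range and the other KO libraries below it. The difference was -0.91 (95% interval -1.62 to -0.20, adjusted p = 0.0858). Without KO 1 it was -1.22 (adjusted p = 0.0136). Retained-intron forms held most of its TPM, ENSMUST00000151562 with 42.0 ± 9.11% in KO and 46.7 ± 2.37% in WT, and ENSMUST00000145174 with 38.4 ± 1.41% in KO and 38.4 ± 2.71% in WT. Dtx1 was listed at 0 in every md library. Hes1 had 21.0, 12.9 and 16.2 TPM in ES KO and 18.4, 23.1 and 22.8 TPM in ES WT, which overlapped (-0.36, 95% interval -0.79 to 0.07, adjusted p = 0.204). Without KO 1 the difference was -0.53 (adjusted p = 0.0391). The fit without KO 1, given for Dtx1 too, called 3985 of 12584 genes, against 1576 of 12860 with all libraries. In md cells Hes1 had 8.99, 6.06, 4.98 and 6.96 TPM in KO1 to KO4 and 5.81, 7.32 and 5.68 TPM in WT (0.07, adjusted p = 0.949), and -0.06 without KO1.

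**Figure D4:**
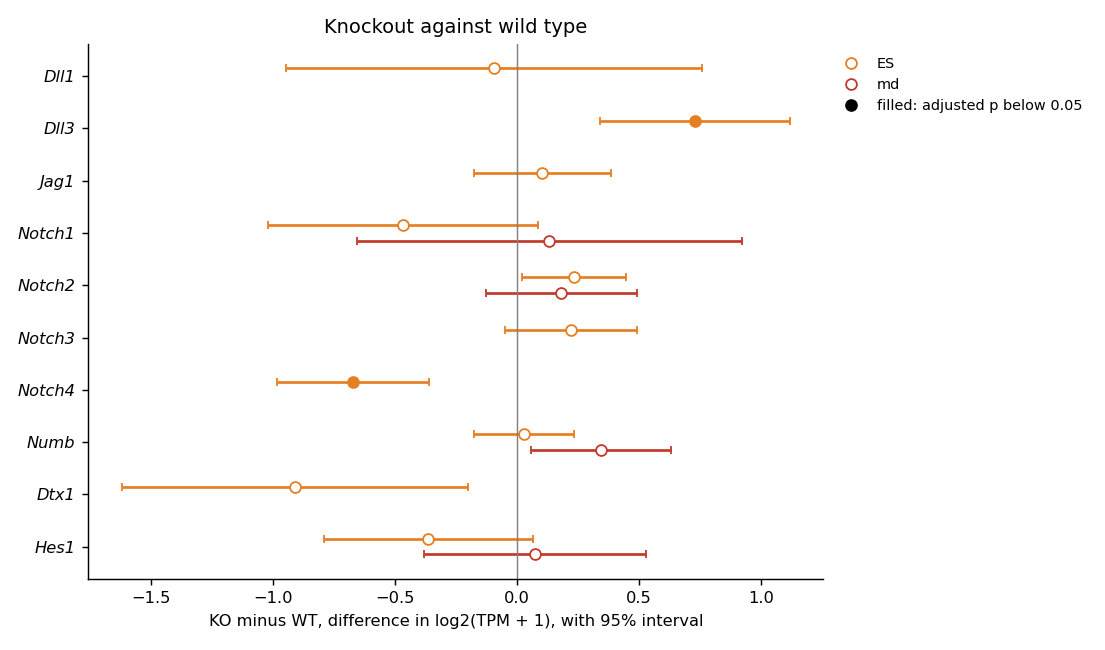
KO minus WT difference in log2(TPM + 1) (horizontal axis) with its 95% interval for each gene tested in ES and in md cells; filled points have an adjusted p below 0.05. Dll3 (0.73) and Notch4 (-0.67) in ES cells are filled, and Numb in md cells (0.34) is not.

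Counted together, limma called 2 of the 10 members in ES cells, 1 higher and 1 lower, with a median difference of -0.03 against 0.03 for all genes tested. That is near the 12.3% called among all genes. In md cells it called none of 4, against 0.0165% of all genes. Of the 4, 1 had an unadjusted p under 0.05, against 6.86% of all genes. Between exon 9 and exon 3 clones it called none of 4, against 3.73% of all genes (1.41% higher and 2.32% lower). None of the 4 had an unadjusted p under 0.05 there. Each pair of clones set against WT also gave none of 4, against 0.629% of genes for the exon 9 clones (0.256% higher, 0.372% lower) and 0.199% for the exon 3 clones (0.0331% higher, 0.165% lower). Of those, Numb in the exon 3 clones had the only unadjusted p under 0.05 (0.00542). Within a table, TPM can be set side by side between genes since it is per length. In md WT the order was Numb (10.7), Notch2 (8.47), Hes1 (6.27), Notch1 (2.12), Jag1 (0.835), Notch4 (0.227) and Dll1 (0.131), and Notch3 (0.0179), with Dll3 and Dtx1 at 0. The libraries of neighbours did not overlap there from Numb down to Notch4, and those of Notch4, Dll1 and Notch3 did. In ES WT it was Dtx1 (36.7), Hes1 (21.4), Notch1 (10.1), Notch3 (10.0), Numb (9.57), Notch4 (9.10), Dll3 (6.01), Jag1 (5.60), Dll1 (4.33) and Notch2 (4.21). There Dtx1 lay above all Hes1 values and Hes1 above all others. The genes from Notch1 to Notch4 overlapped one another, and so did each neighbour from Dll3 down to Notch2.

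Of the receptors and ligands, Notch2 carried by far the most crosslinks. Notch2 (chr3:97817461-97954290, plus strand) held 454, 1184, 1433 and 349 with RBM10 and 318, 699, 34 and 36 with IgG. As CPM these are 407, 416, 504 and 450 with RBM10 and 330, 316, 330 and 228 with IgG. Every RBM10 library lay above every IgG library, but the edgeR test did not call the gene (log2 fold change 0.29, adjusted p = 0.177, and 0.55 with 0.0275 without TMM scaling). Notch1 held 86, 197, 164 and 33 with RBM10 and 49, 95, 3 and 2 with IgG (0.36, adjusted p = 0.339). Jag1 held 26, 32, 72 and 18 with RBM10 and 14, 17, 0 and 0 with IgG (0.91, adjusted p = 0.150, and 1.12 with 0.0372 when each position counted once). Hes1 had 37 crosslinks with RBM10 and 12 with IgG in sum. Notch3 had 11 with RBM10 and 2 with IgG, Notch4 9 with RBM10 and 3 with IgG, and Dtx1 none with RBM10 and 1 with IgG. Dll3 had 6 and Dll1 3 with RBM10, and neither had any with IgG. These 6 genes had too few for the test, and all but Hes1 had at most 1.16 TPM in any md library. Of the 4 members tested 1, Numb, was called. A count of 0 in an RBM10 library allows a CPM of up to 1.05 to 3.87, depending on the library.

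RBM10 crosslinks in Notch2 and Notch1 gathered beside splice sites more than IgG crosslinks did. In Notch2 the share within 100 nt was 29.7, 26.2, 38.2 and 48.1% with RBM10 and 5.03, 3.00, 2.94 and 0% with IgG. In Notch1 it was 50.0, 33.5, 45.7 and 60.6% with RBM10 and 14.3, 4.21, 0 and 0% with IgG. The groups did not overlap in either gene. The IgG values of 0 in Notch1 rest on 3 and 2 crosslinks, where a count of 0 allows up to 100%. That in Notch2 rests on 36, where it allows up to 8.33%. The differences were 32.8 points in Notch2 and 42.8 points in Notch1 (exact permutation p = 0.0286 each, adjusted 0.0358; sign-flip p = 0.125). In Jag1 it was 30.8, 40.6, 69.4 and 72.2% with RBM10, and 7.14 and 5.88% in the IgG libraries with any crosslink, and this was not tested. Over all protein-coding genes the share was 25.6, 22.4, 37.0 and 35.9% with RBM10 and 6.24, 4.51, 5.46 and 5.40% with IgG. Numb lay below that in each RBM10 library. Splice-site windows take up 3.59% of the bases of protein-coding genes, 1.88% of Numb, 4.76% of Notch2, 10.7% of Notch1 and 13.3% of Jag1. The intronic share of the pooled crosslinks of the 10 genes was 91.2 ± 4.36% with RBM10 and 80.6 ± 5.59% with IgG. The groups overlapped, with a difference of 10.6 points (exact permutation p = 0.0571, sign-flip p = 0.125). Without the fourth IgG library it was 13.4 points (exact permutation p = 0.0286).

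**Figure D5:**
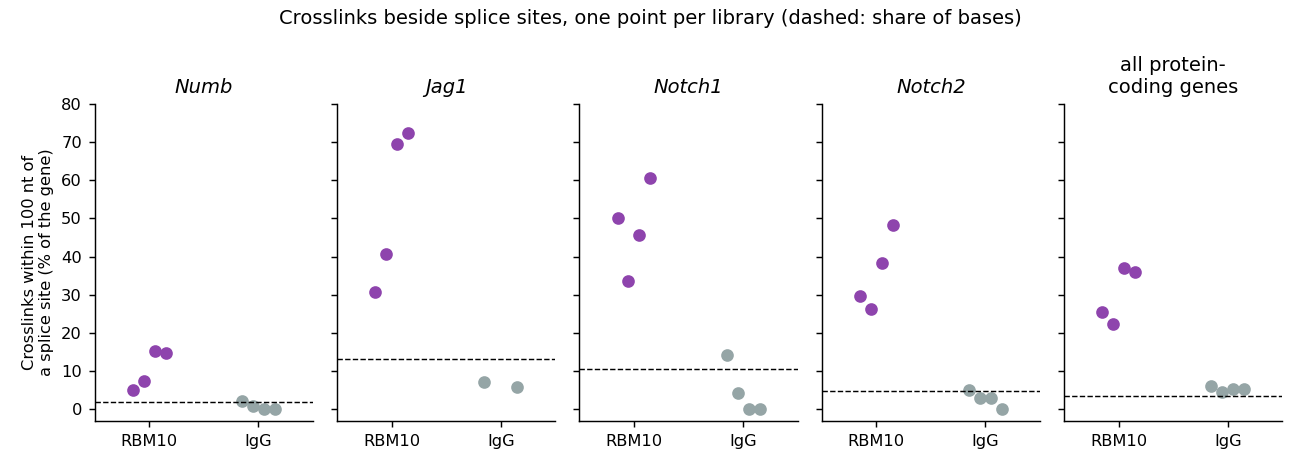
Percent of a gene's crosslinks within 100 nt of an annotated splice site (vertical axis) in RBM10 and IgG libraries, for Numb, Jag1, Notch1, Notch2 and all protein-coding genes; each point is a library with any crosslink in the gene, and dashed lines give the share of the gene's bases in those windows. RBM10 points lie above all IgG points in each panel, at 5.13 to 15.3% in Numb and 26.2 to 48.1% in Notch2. IgG points at 0 rest on 6 and 16 crosslinks in Numb, 3 and 2 in Notch1 and 36 in Notch2.

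Notch2 had RBM10 crosslinks in the last 100 nt before all 33 of its internal and last exons, IgG before 14, and all 4 RBM10 libraries before 20. Numb had none that all 4 RBM10 libraries shared. The most lay before exon 17 of Notch2, with 18, 21, 71 and 39 with RBM10 against 1, 0, 0 and 0 with IgG, and before exon 16, with 21, 36, 63 and 17 against 1, 0, 0 and 0. Every RBM10 library exceeded every IgG library at both. The next sequences show these intron ends on the plus strand of mm9, chr3:97921006-97921135 for exon 17 and chr3:97920514-97920643 for exon 16. Each runs through the last 110 nt of the intron and the first 20 nt of the exon, with bases that had 3 or more RBM10 crosslinks in capitals.
Notch2 before exon 17: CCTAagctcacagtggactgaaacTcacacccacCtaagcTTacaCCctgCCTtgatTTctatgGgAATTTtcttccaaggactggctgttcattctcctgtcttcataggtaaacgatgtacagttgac
Notch2 before exon 16: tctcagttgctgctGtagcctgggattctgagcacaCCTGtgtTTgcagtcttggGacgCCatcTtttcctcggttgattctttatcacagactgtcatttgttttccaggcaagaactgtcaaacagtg
The most crosslinked base of all 10 genes, chr3:97920552, lies 72 nt before exon 16, with 11, 17, 19 and 13 crosslinks with RBM10 and 1, 0, 0 and 0 with IgG.

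In windows of 1000 nt, 8 windows of Notch2 and none of the other 9 genes passed the filter, and edgeR called 6 of the 8. With at least 10 crosslinks as the filter it called 12 windows. These were 10 of 123 tested in Notch2, 1 of 23 in Numb, given above, and 1 of 7 in Jag1. None of 28 in Notch1 or 2 in Hes1 was called. Of all 212398 windows tested that way 5.76% were called, 5.65% higher and 0.113% lower. The Jag1 window, at chr2:136917001-136918000, held 24 crosslinks with RBM10 and 0 with IgG (edgeR adjusted p = 0.0262). Like the Numb window, it passed that filter on RBM10 crosslinks alone. Under the main filter 47.8% of 10782 windows tested were called, 27.1% higher and 20.7% lower with RBM10. The 5 higher windows start at chr3:97906001 (log2 fold change 2.51), chr3:97920001 (2.29), chr3:97921001 (2.40), chr3:97910001 (2.15) and chr3:97948001 (1.34), with adjusted p from 0.00345 to 0.0407. They held 93 to 267 crosslinks with RBM10 and 5 to 10 with IgG in sum. Their RBM10 libraries by themselves carried them through the filter, which favours a higher call. The window at chr3:97951001 was lower (-2.04, adjusted p = 0.00175), with 43 crosslinks in RBM10 and 38 in IgG libraries. It was not called without TMM scaling (-0.92, adjusted p = 0.124), with DESeq2 (adjusted p = 0.234) or with at least 10 crosslinks as the filter (adjusted p = 0.814), and was not tested without IgG 2. The window at chr3:97948001 lost its call with the replicate block (adjusted p = 0.0798) and without RBM10 2 or any IgG library (0.0666 to 0.249). Without IgG 2 the windows at chr3:97906001 and chr3:97910001 lost theirs too (0.0792 and 0.225). Of all window calls 56.8% were higher with RBM10, and 84.3% without TMM scaling.

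Beyond the 10 genes, 69 genes of the pathway were listed by role, members included, with 56 tested in ES and 50 in md cells. In ES cells limma called 3 higher and 3 lower, 10.7% of those tested, against 12.3% of all genes called, 7.53% higher and 4.73% lower. Of the 56, 19 (33.9%) had an unadjusted p under 0.05, against 34.1% of all genes, so neither count sets the list apart. The median difference was 0.06, against 0.03 for all genes. Dlk1, a Delta-like protein of imprinted expression, had 5.92, 7.02 and 5.27 TPM in ES KO against 1.20, 1.32 and 1.97 TPM in ES WT (1.51, 95% interval 1.14 to 1.88, adjusted p = 0.00832). The groups were far apart, though without WT 1 or WT 2 the adjusted p was 0.0511 and 0.0508. Kat2b, a histone acetyltransferase and Notch coactivator, had 43.3, 36.0 and 32.7 TPM in ES KO and 67.0, 61.7 and 64.4 TPM in ES WT (-0.78, adjusted p = 0.0189). The p was 0.0766 to 0.0997 without KO 2, KO 3, WT 1 or WT 2. Ncstn, the nicastrin subunit of the enzyme that makes the last cut of Notch, had 15.1, 13.6 and 12.5 TPM in ES KO and 20.8, 20.9 and 16.8 TPM in ES WT (-0.47, adjusted p = 0.0493, and 0.160 to 0.181 without the same libraries). Ctbp2, a corepressor, had 225, 260 and 275 TPM in ES KO and 195, 199 and 189 TPM in ES WT (0.38, adjusted p = 0.0497, and 0.124 after quantile normalization). Its p was 0.0724 to 0.169 when KO 2, KO 3 or any WT library was left out. With a pseudocount of 0.1 the adjusted p was 0.0508 for Ncstn and 0.0515 for Ctbp2, and without the filter on low values 0.0752 and 0.0730.

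No role held more than 2 called genes, beside the 7.53% of all genes called higher and 4.73% called lower. In detail, 2 of 5 ligands tested in ES cells were called, both higher, 1 of 4 receptors and 1 of 8 genes of receptor cleavage, both lower. Of 7 nuclear coactivators 1 was called lower, of 11 corepressors 1 higher, and none of 13 genes of endocytosis and turnover, 5 of glycosylation or 3 targets. In md cells limma called none of the 50, against 0.0165% of all genes. It gave 2 of them (4.0%) an unadjusted p under 0.05, against 6.86% of all genes, and a median of 0.00 against 0.01 for all genes. The lowest p there were those of Numb, of the corepressor Tle4 (2.06 ± 0.65 TPM in KO and 1.19 ± 0.09 TPM in WT, adjusted p = 0.721) and of Aph1c, a subunit of the same enzyme as nicastrin (2.87 ± 1.79 TPM in KO and 1.11 ± 0.37 TPM in WT, adjusted p = 0.738).

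The genes whose level followed that of Numb most closely were Lin9 (Pearson r = 0.92), Rere (0.90) and 2310004N24Rik (0.87), over 13 libraries. They were sought among 7311 genes that averaged 5 TPM or more in both tables. Values were log2(TPM + 1) centred on each table's mean, and the libraries share their tables and clones.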

How the data were processed

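RBM10 contacts in md MEPA cells were mapped by iCLIP (4 libraries with each antibody). Polyadenylated RNA of ES and md cells was sequenced in 13 libraries, grouped by title. The authors deposited crosslink counts per position and strand, from reads mapped to mm9 per the design text, and TPM per transcript in a table for each cell type. The submitters' processing notes name mm9 and mm10. For aligner, quantifier, strandedness and barcode collapse the sources used here give nothing. The 10 genes and the lists were chosen with earlier results of these data known.

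Of 100249 transcripts 84877 (84.7%) were joined to GENCODE vM1 (mm9). Among transcripts averaging 1 TPM or more the join took in 91.4% for md and 91.3% for ES. Gene TPM is the sum of joined transcripts. From the deposited TPM, log2(TPM + 1), PSI and the percent of a gene's TPM were tested with limma 3.58.1 (R 4.3.3) over all genes, cassette exons or transcripts. The log2 scale understates changes of low genes. Genes needed 1 TPM in 3 libraries. PSI and shares needed 1 TPM in all libraries, with means between 5 and 95%, and their calls also needed 10 points besides an adjusted p under 0.05. Such values depend on how reads were divided among transcripts, so reads of overlapping or antisense genes cannot be told apart with certainty. Crosslinks per gene and per 1000-nt window on the gene's strand were put to edgeR 4.0.16 (TMM scaling, filterByExpr, quasi-likelihood), with DESeq2 1.42.0 as an alternative. Shares were compared by exact permutation over 70 splits and sign flips of 4 pairs. Intervals are 95%, and floors of 3 counts cover counting error only. The tests were tried on simulated data. For gene TPM, 200 changed genes were drawn from those averaging above 2 in log2(TPM + 1), so recovery of lower genes was not measured. In data of 12090 md genes limma recovered 64.0% of log2 changes of 1 and 91.0% of 2. In data of 12860 ES genes it recovered 73.0 and 96.0%.

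Named were the 10 genes, Rbm10, Numb cassettes and tested cassettes of the others, member windows called, the 5 Numb positions with most RBM10 crosslinks, pathway genes called (up to 6 a direction, otherwise the 3 lowest p) and the 3 genes most like Numb. Transcripts were named where called or at 20% or more of a gene; Numb forms below that, and the exons before which Notch2 crosslinks were counted, were named after their values were seen. Replicate numbers pair the iCLIP libraries by the design text, although deviations of same-numbered libraries correlated at -0.02 to 0.03.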

Additional observations from a re-analysis of the deposited data

Results flagged for a closer look

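Notch3 reached 1.16 TPM in the exon 9 clone KO4, against 0 to 0.133 TPM in the other md KO clones, which set that clone apart. Notch2 stood at a CPM of 228 in the fourth IgG library, against 316 to 330 in the other IgG libraries, and it rests on 36 crosslinks. Jag1 stood at a CPM of 11.2 in the second RBM10 library, against 23.2 to 25.3 in the others. The intronic share of the members' crosslinks was 88.9% in the fourth IgG library and 76.7 to 78.6% in the others. Rbpj, the DNA-binding partner of Notch, had 55.8 TPM in the exon 9 clone KO3, against 9.75, 14.0 and 15.1 TPM in the other md clones and 13.5 to 14.6 TPM in md WT; it was named after its values were seen. Chance sets apart about 1 in 20 such groups, and 30 were examined. The ES effect minus the md effect of Notch4 was -0.78 in log2(TPM + 1) (limma adjusted p = 0.0450, and 0.198 with a pseudocount of 0.1). Notch4 had at most 0.396 TPM in any md library and was not tested in md cells alone, so the value restates the ES difference and shows no difference between the cell types.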

How the results depend on the processing

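In ES cells 2 members were called, 0 without a filter on low values, 0 with the replicate block and 0 to 5 when a library was left out. Pathway calls there numbered 6, and 2 without the filter, 2 with the block and 0 to 21 with a library left out. Calls over all ES genes moved as well. They were 1576 of 12860, and 774 of 22091 without the filter and 422 of 12860 with the block. With a library left out they ran from 21 of 12641 (without WT 1) to 3985 of 12584 (without KO 1). The replicate numbers share only a number in the RNA-seq (correlations of same-numbered deviations from -0.14 to 0.17). The single call for a difference between ES and md effects was 0 with a pseudocount of 0.1, 0 without the filter and 0 to 3 with a library left out. Over all genes that contrast called 574, against 281, 719 and 80 to 1814 in the same order. Crosslinked genes called numbered 1, against 0 with DESeq2, 0 with at least 10 crosslinks, 2 with each position counted once, 0 with the block and 0 to 1 with a library left out. Over all genes 3472 were called, against 3285, 3633, 4106, 2687 and 1794 to 4018 in the same order. Windows called numbered 6, against 12 with at least 10 crosslinks and 2 to 6 with a library left out. Of all windows tested 47.8% were called, and 5.76% with at least 10 crosslinks. Pairing leaves the shares as they were, with an exact sign-flip p of 0.125 at the lowest: 9.86 points in Numb, 32.8 in Notch2, 42.8 in Notch1 and 27.4 for C. With a library left out these were 8.32 to 11.7, 28.6 to 36.0, 38.5 to 47.5 and 25.6 to 28.8 points, and 9.20 to 13.4 for introns. Signs turned, none of them called, with a library left out: the range was -0.0568 to 0.19 for Hes1 and -0.0347 to 0.44 for Notch1 in md, -0.50 to 0.19 for Dll1 in ES, -0.80 to 3.28 points (md) and -4.98 to 4.08 points (ES) for the 147-nt exon, and -4.37 to 5.22 points for the 33-nt exon in ES. The causes were not tested. No call for members in md cells, for cassette exons, for transcript shares or between clones appeared under any alternative tried. The shares for Notch1, Notch2 and C and the values for each pair of clones against WT were chosen after seeing the data. The shallowest IgG library, with 103017 crosslinks, limits the crosslink comparisons.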
